A study of Mus musculus with 17 samples.

Results

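Interferon response genes are genes whose transcription rises when a cell meets type I or type II interferon, and 37 of them were followed across 5 progenitor fractions of mouse bone marrow. Each was taken from the probe sets that carry exactly 1 gene symbol equal to its own, and where a gene had several, the probe set with the highest mean over the 17 arrays was used. This gave values for 35 of the 37, out of 18193 genes measured in the same way. No value is given for Isg15, which stood only on a probe set with several symbols, or for Ifi44. The 14 members with more than 1 probe set had 22 further probe sets, of which 5, belonging to 4 members, exceeded an intensity of 50 in a fraction. The probe sets used for Trim25, Ifi35 and Gbp2 are of types that can match more than 1 transcript.

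The fractions were sorted by surface markers from bone marrow of mice aged 10 to 14 weeks, and RNA from each sort was amplified and hybridised to Affymetrix 3-prime expression arrays. CLP (common lymphoid progenitors, Lin-Sca1lowKitlowIL7r+Flk2+) had 3 arrays. The other fractions all lay in the Lin-Sca1-Kit+ myeloid compartment. PreGM, directed to granulocytes and monocytes (Itga2b-FcgRlowSlamf1-Englow), had 3 arrays, and preMegE, which gives rise to megakaryocytes and red cells (Itga2b-FcgRlowSlamf1+Englow), had 5. MkP, megakaryocyte progenitors (Itga2b+Slamf1+), had 3 arrays, and preCFUE, an early erythroid stage (Itga2b-FcgRlowSlamf1+Enghigh), had 3. The labels used here give no treatment, strain, sex or allele, and do not state whether replicate arrays were separate animals, separate sorts or repeats of 1 RNA. A p-value here thus reflects array-to-array spread, part or all of which may be technical.

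The values are RMA intensities, a summary of the probes of a probe set on a linear scale, and an intensity of 50 served as the mark between dim and brighter probe sets. No background level was given per probe set, so a dim value does not show that a transcript was absent. Median intensities ran from 15.96 to 19.07 per array. Summed markers of CLP, preGM, MkP and preCFUE were higher on every array of the fraction of that name than on any other array, whereas those of preMegE (5 genes) overlapped, at 3515 to 4881 in preMegE and 2523 to 3557 in MkP. The summed intensity of 6 megakaryocyte genes (Itga2b, Pf4, Gp9, Gp1bb, Vwf and Itgb3) was 11470 to 12570 in MkP and at most 719 elsewhere, and that of 6 erythroid genes was 15360 to 17360 in preCFUE and 7146 to 11090 in preMegE. CLP replicate 2 stood apart: over all genes it correlated better with the preGM arrays (mean r = 0.962) than with the other CLP arrays (0.949), although its Rag1 intensity of 1991 was the highest of the 3. The log2 ratio of 3-prime to 5-prime Gapdh probe sets, a measure of RNA shortening, ran from 2.72 to 5.12 and was lower in CLP replicate 2 (3.00) than in CLP replicates 1 (5.12) and 3 (4.08).

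As background, type I interferons bind the Ifnar1 and Ifnar2 receptor pair and activate Jak kinases, after which a complex that holds Stat2 and Irf9 binds the interferon-stimulated response element (ISRE) in promoters. Interferon gamma acts through Ifngr1 and Ifngr2 on promoters with the gamma-activated sequence (GAS). The genes switched on include RNA sensors, nucleotidyltransferases, GTPases that attack intracellular pathogens and membrane proteins that block virus entry. Stem and progenitor cells are known to keep part of this programme on without infection, and in bone marrow interferon signalling is known to affect stem cell cycling and megakaryocyte output.

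The promoters of 4 members that were lower in MkP than in preMegE, and of Ifitm3, the 1 member that was higher there, are shown because they hold or lack the letters of these elements. The choice is not representative: all 4 hold an ISRE match. Among the lower members with a promoter sequence, 5 held such a match and 5 did not. They are the 250 bases before the annotated transcript start in the gene's direction, from RefSeq on GRCm38.p6, with matches in capitals. The ISRE letters searched were GAAA, any 2 bases and GAAA again, and the GAS letters TTCNNNGAA, both on either strand, and matches of both kinds were allowed to overlap. Irgm1 lies at chr11:48871421-48871670 on the minus strand, Igtp at chr11:58199306-58199555 on the plus strand, Gbp2 at chr3:142620413-142620662 on the plus strand, Ifit1 at chr19:34640639-34640888 on the plus strand and Ifitm3 at chr7:141010745-141010994 on the minus strand.
Irgm1: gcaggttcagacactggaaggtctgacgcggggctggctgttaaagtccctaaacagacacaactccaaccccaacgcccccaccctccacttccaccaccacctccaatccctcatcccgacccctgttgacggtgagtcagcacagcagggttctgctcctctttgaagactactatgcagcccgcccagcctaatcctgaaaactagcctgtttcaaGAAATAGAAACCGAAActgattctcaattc
Igtp: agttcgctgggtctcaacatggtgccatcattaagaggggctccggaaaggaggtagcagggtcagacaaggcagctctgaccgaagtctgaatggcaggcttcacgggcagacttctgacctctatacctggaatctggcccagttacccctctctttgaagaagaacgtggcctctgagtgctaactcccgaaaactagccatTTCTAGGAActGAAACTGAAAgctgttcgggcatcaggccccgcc
Gbp2: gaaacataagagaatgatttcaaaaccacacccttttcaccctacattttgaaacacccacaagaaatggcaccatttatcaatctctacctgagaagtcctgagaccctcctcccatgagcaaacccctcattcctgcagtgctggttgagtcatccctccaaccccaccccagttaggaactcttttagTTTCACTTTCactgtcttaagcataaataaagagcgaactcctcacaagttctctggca
Ifit1: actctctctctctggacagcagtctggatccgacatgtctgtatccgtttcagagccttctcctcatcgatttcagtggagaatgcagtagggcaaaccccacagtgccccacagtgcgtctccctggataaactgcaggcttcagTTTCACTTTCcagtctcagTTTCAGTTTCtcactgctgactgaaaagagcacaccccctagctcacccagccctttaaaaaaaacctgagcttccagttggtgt
Ifitm3: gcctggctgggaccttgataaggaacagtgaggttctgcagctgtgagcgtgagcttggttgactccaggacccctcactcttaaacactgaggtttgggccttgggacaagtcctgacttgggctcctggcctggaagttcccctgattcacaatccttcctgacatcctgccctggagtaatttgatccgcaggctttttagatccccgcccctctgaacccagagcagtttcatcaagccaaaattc

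Irgm1 held a pair of overlapping ISRE matches, the nearer ending 15 bases before the start. Igtp held an ISRE match 25 bases before the start with a GAS match directly beside it, at 37 bases. In Gbp2 the ISRE match lay 50 bases before the start, and Ifit1 had a pair of matches at 76 and 95 bases. The Ifitm3 window held neither motif, which says only that these letters are not in these 250 bases. Promoters were found for 25 of the 35 members, and 12 of the 25 (Bst2, Cxcl10, Gbp2, Gbp3, Ifit1, Ifit3, Igtp, Irgm1, Oas1a, Oas3, Rsad2 and Stat2) held the ISRE letters, against 2.98% of all 32851 promoter windows. The GAS letters stood in 5 of the 25 (Bst2, Eif2ak2, Ifit2, Igtp and Oas1a), against 7.02% of all windows. Promoters were not matched for Dhx58, Zbp1, Usp18, Oas2, Mx1, Mx2, Rtp4, Parp9, Parp14 and Iigp1. A match describes letters and is not evidence that a factor binds.

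The members were above the mark of 50 more often than genes at large. The mean intensity exceeded 50 in at least 1 fraction for 29 of the 35 members, against 48.3% of all genes, and in every fraction for 19. The number above 50 was lowest in MkP (19), with 23 in CLP, 26 in preGM, 27 in preCFUE and all 29 in preMegE. Of all genes, 40.2% were above 50 in MkP, 39.4% in CLP, 42.6% in preGM, 40.7% in preCFUE and 41.3% in preMegE. The 6 members at or below 50 everywhere were Stat2, Ifit3, Oas3, Mx1, Mx2 and Cxcl10. A difference among the 5 fractions passed the limma F test (adjusted p below 0.05 over all genes) for 24 members, against a background of 34.9% of all genes and 60.6% of genes above 50. These 24 were 23 of the members above 50 and Mx1.

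**Figure D1:**
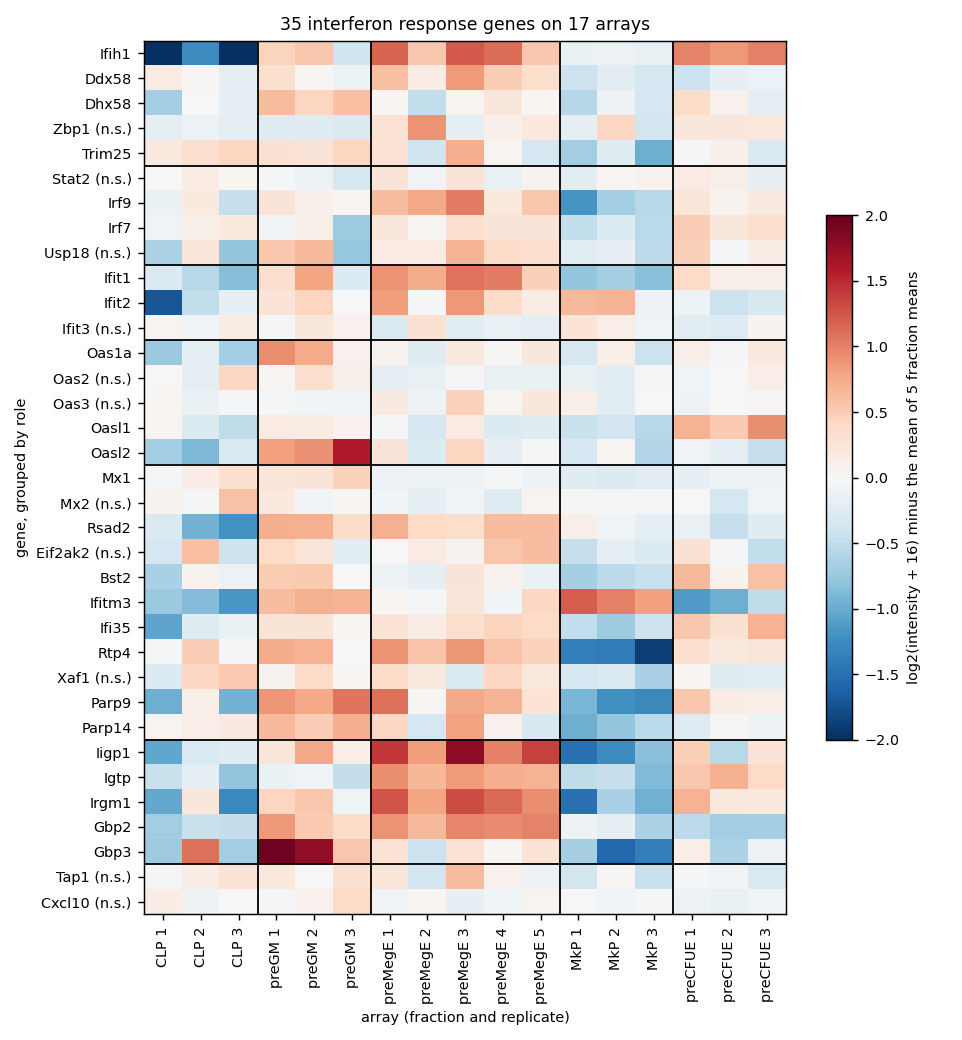
Level of 35 interferon response genes (rows, grouped by role with lines between groups) on 17 arrays (columns, by fraction and replicate), as log2(intensity + 16) minus the mean of the 5 fraction means. Red is above and blue below that mean, and n.s. marks the 11 genes that did not pass the F test. The MkP columns are mostly blue, with exceptions that include Ifitm3 and, on average, Ifit2.

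MkP was the fraction in which interferon response genes were most often lowest. Of the 29 members above 50, 19 had their lowest mean in MkP, whereas 22.7% of all genes above 50 did. CLP held the lowest mean of 7 members, against 47% of all genes above 50. The highest mean lay in preMegE for 12 members, in preGM for 10, in preCFUE for 5, in CLP for Xaf1 alone and in MkP for Ifitm3 alone. Among all genes above 50 the highest mean lay in preMegE for 15.6%, in preGM for 24.9% and in preCFUE for 37.3%. In a sorted pool of cells, fewer cells that express a gene and less RNA per cell cannot be told apart.

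Against preMegE, the megakaryocyte progenitors had lower levels of 14 members and a higher level of Ifitm3. The 14 were the immunity-related and guanylate-binding GTPases Iigp1, Irgm1, Igtp and Gbp2, the RNA sensors Ifih1 and Ddx58, the transcription factors Irf9 and Irf7, Ifit1, Rsad2, Rtp4, Ifi35, and the ADP-ribosyltransferase family proteins Parp9 and Parp14. These calls compare with a background of 6.37% of all genes lower and 3.98% higher, and with 12.5% lower among genes above 50. On each of the 15 called genes the MkP and preMegE arrays did not overlap, which follows largely from the call itself with so few arrays. They did not overlap either for Usp18, Oasl1, Mx1, Eif2ak2, Bst2, Xaf1 and Gbp3, which were not called. The share of all genes without overlap was not counted. The median log2 fold change was -0.59 over the 35 members, 0.0096 over all genes and -0.22 over genes above 50, and 30 of the 35 members lay below 0. With quantile normalisation the median of genes above 50 moved to -0.01 while that of the members was -0.50, with 13 members lower and 1 higher. The shares of genes given above belong to the main fit, and those under quantile normalisation were not set beside this count. The number of members called in this comparison ranged from 12 to 17 when each array was left out in turn.

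MkP and preCFUE were also compared directly, with the same 3 MkP arrays. In MkP 12 members were lower and 1, Ifitm3, was higher, against a background of 10.7% of all genes lower, 5.51% higher, and 20.7% lower among genes above 50. The median log2 fold change was -0.31 over the 35 members, -0.56 over the 29 members above 50 and -0.29 over all genes above 50. With quantile normalisation it was -0.19 over the 35 members and -0.04 over genes above 50. Lower in MkP were Rtp4, Parp9, Irgm1, Iigp1, Oasl1, Igtp, Ifih1, Ifi35, Bst2, Irf9, Ifit1 and Irf7.

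**Figure D2:**
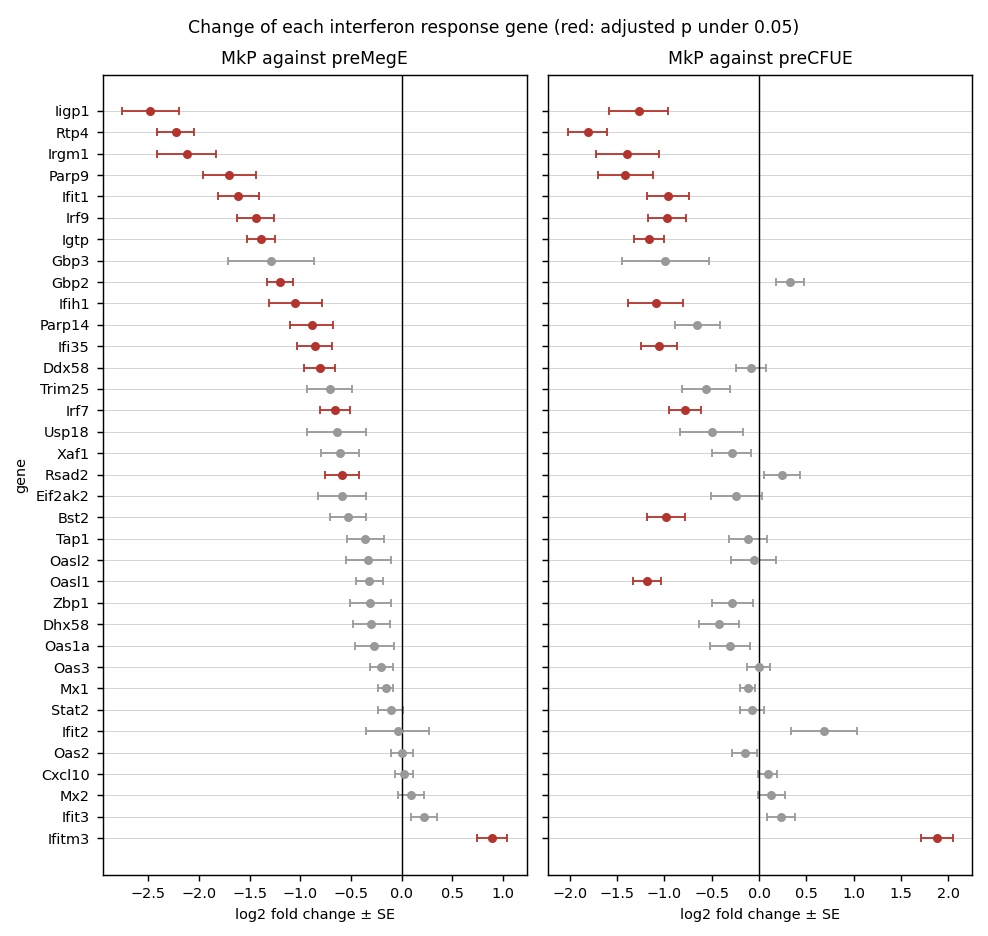
Log2 fold change of each of the 35 members (rows) on the log2(intensity + 16) scale, with bars for ± 1 SE, in MkP against preMegE (left) and MkP against preCFUE (right). Red points passed the test at an adjusted p under 0.05; 14 lie left of 0 and 1, Ifitm3, right of 0 in the left panel, and 12 and 1 in the right panel.

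The erythroid stage differed from preMegE in fewer members. In preCFUE Gbp2, Iigp1, Ifitm3, Rsad2 and Ddx58 were lower and Oasl1 was higher, against a background of 3.94% of all genes lower and 4.75% higher. The members' median log2 fold change was -0.23, and it was 0.05 over genes above 50. Between preMegE and preGM 3 members were lower in preMegE (Oasl2, Ifitm3 and the dim Mx1) and 1, Igtp, was higher, against 5.88% and 2.81% of all genes. This last count is the least stable: with quantile normalisation 8 members were higher and 4 lower in preMegE, and with array weights 9 were higher and 11 lower. The shares of all genes given above belong to the main fit. Those of the alternative fits were not set beside these counts, which therefore describe stability only.

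CLP had lower levels than preGM for 11 members and higher levels for none. The background was 13.3% of all genes lower and 5.07% higher, and 25.7% lower among genes above 50. At an unadjusted limma p under 0.05, 16 members were lower and again 0 higher, a limit at which the share of all genes was not counted. The median log2 fold change was -0.38 over the 35 members, -0.58 over the 29 members above 50, which hold all 11 calls, and -0.44 over all genes above 50. Without CLP replicate 2 the count was 15, without preGM replicate 1 it was 7, and with only the CLP and preGM arrays in the fit it was 3. That fit lost Ifih1, Dhx58, Ifit1, Oas1a, Rsad2, Ifi35, Parp9 and Gbp3 (adjusted p from 0.0573 to 0.222). With quantile normalisation 8 members were lower and 1 was higher, and the median of genes above 50 moved to -0.07. The shares of all genes called in these alternative fits were not set beside the counts. Set together, CLP and preGM exceeded the mean of preMegE, MkP and preCFUE for Gbp3, Parp14, Trim25, Rtp4 and Mx1 and lay below it for Ifih1 and Igtp, against 8.82% and 9.99% of all genes.

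**Figure D3:**
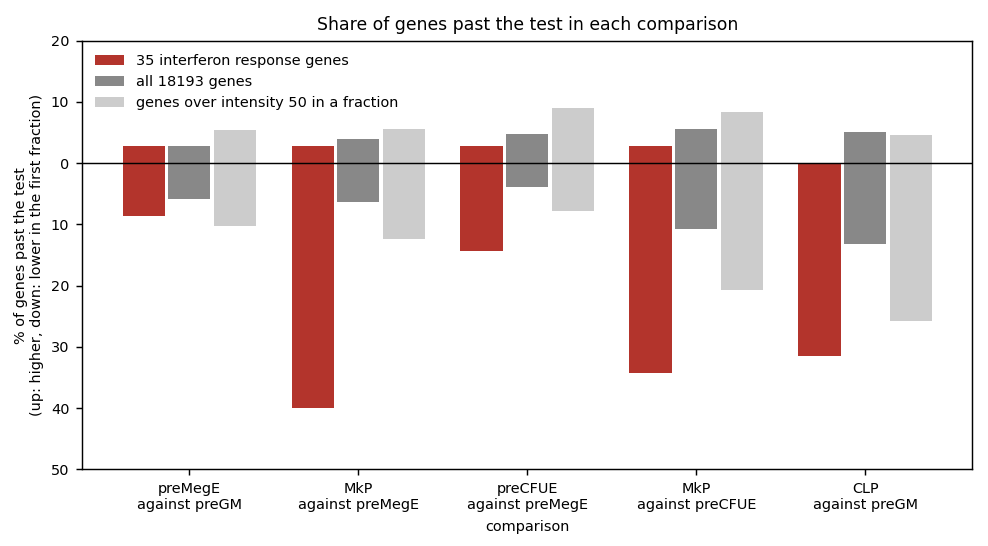
Share of genes past the test in each comparison (percent, up for higher and down for lower in the first fraction named), for the 35 members (red), all 18193 genes (dark grey) and the genes above intensity 50 in a fraction (light grey). The red bar exceeds the light grey bar most in MkP against preMegE, where 14 of 35 members were lower against 12.5% of genes above 50.

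The values behind these calls follow by role. Losses named beside a call are not always every alternative that lost it. A mean carries its SD, with n = 5 in preMegE and n = 3 in the other fractions. All fold changes were computed from log2(intensity + 16), which understates the change of dim genes, and carry the SE and a limma p-value adjusted over 18193 genes.

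The GTPases were the role group in which all measured members passed the F test (5 of 5), and 4 of them were lower in MkP than in preMegE. Irgm1, an immunity-related GTPase that acts on membranes of vacuoles and mitochondria and is known to protect stem cells from excess interferon signalling, measured 699.9, 504, 725, 643 and 557 on the preMegE arrays and 90.4, 177 and 138 on the MkP arrays. Its preCFUE arrays read 469, 328 and 327, its preGM arrays 388, 419.6 and 269 and its CLP arrays 132, 335 and 107. Every preMegE array lay above every other array, and the spread in CLP came from replicate 2, which was above the other CLP arrays. Irgm1 was 4.34-fold lower (log2 fold change -2.12 ± 0.29, adjusted p = 0.000266) in MkP than in preMegE and 2.62-fold lower (log2 fold change -1.39 ± 0.33, adjusted p = 0.0102) than in preCFUE. The latter call was lost when MkP replicate 1 (adjusted p = 0.0512) or preCFUE replicate 1 (adjusted p = 0.0531) was left out.

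Igtp (Irgm3), a GTPase of the endoplasmic reticulum and lipid droplets, read 509, 422, 482, 439 and 430.2 in preMegE and 384, 434 and 348 in preCFUE. The other fractions were lower, with 178, 185 and 134 in MkP, 236, 249.5 and 184 in preGM and 186, 226 and 145 in CLP. All preMegE and preCFUE arrays lay above all arrays of MkP, preGM and CLP. Igtp was 2.62-fold lower (log2 fold change -1.39 ± 0.14, adjusted p = 1.39e-05) in MkP than in preMegE, 2.24-fold lower (log2 fold change -1.16 ± 0.16, adjusted p = 0.000144) in MkP than in preCFUE and 1.99-fold higher (log2 fold change 0.99 ± 0.14, adjusted p = 0.000208) in preMegE than in preGM. The mean of CLP and preGM was also below the mean of the other 3 fractions (log2 fold change -0.58 ± 0.098, adjusted p = 0.000547). Of the single fractions MkP was lowest, averaging 166 against 186 in CLP and 223 in preGM.

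Iigp1 (Irga6), an effector GTPase that coats and ruptures parasite vacuoles, measured 301, 197, 396, 224 and 292 in preMegE. The MkP arrays read 26.3, 33.9 and 50.9, with a mean below 50. Its preCFUE values were 150, 65.6 and 129, its preGM values 125, 186 and 114 and its CLP values 42.1, 80.7 and 85.3. No array of another fraction reached the lowest preMegE array. Iigp1 was 5.57-fold lower (log2 fold change -2.48 ± 0.28, adjusted p = 3.65e-05) in MkP than in preMegE, the largest fall among the members called in that comparison, and its second probe set, at 92.9 in preMegE and 16.4 in MkP, gave a log2 fold change of -1.71. It was 2.32-fold lower (log2 fold change -1.21 ± 0.28, adjusted p = 0.0123) in preCFUE than in preMegE and 2.41-fold lower (log2 fold change -1.27 ± 0.31, adjusted p = 0.0127) in MkP than in preCFUE. Without preCFUE replicate 2 the first of these was lost (adjusted p = 0.0824), and leaving out MkP replicate 1, preCFUE replicate 1 or preCFUE replicate 3 ended the second (adjusted p from 0.0545 to 0.0675).

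Gbp2, a guanylate-binding protein that binds pathogen membranes, followed another order. It measured 256, 215, 272, 265 and 276 in preMegE and 252, 196 and 174 in preGM. The values were 121, 112 and 79.1 in MkP, 74.5, 91.4 and 90.05 in CLP and 86.5, 74.4 and 75.5 in preCFUE. The preMegE and preGM arrays all lay above those of MkP, CLP and preCFUE. Gbp2 was 2.29-fold lower (log2 fold change -1.20 ± 0.13, adjusted p = 3.12e-05) in MkP and 2.87-fold lower (log2 fold change -1.52 ± 0.13, adjusted p = 4.4e-06) in preCFUE than in preMegE, and it was 2.19-fold lower (log2 fold change -1.13 ± 0.15, adjusted p = 0.000182) in CLP than in preGM. The gene's other probe set gave a log2 fold change of -1.29 in MkP against preMegE. Gbp3, which lies 1 protein-coding gene from Gbp2, was highest in preGM at 589.7, 522 and 215, where replicate 3 lay below the others. Its CLP arrays read 78.8, 322 and 80.7, so that replicate 2 exceeded preGM replicate 3. The preMegE arrays read 177, 101, 176, 146 and 174, the MkP arrays 83.6, 36.8 and 45.2 and the preCFUE arrays 156, 85.9 and 129. Gbp3 was 2.9-fold lower (log2 fold change -1.54 ± 0.46, adjusted p = 0.0366) in CLP than in preGM, a call lost in 8 of 28 alternatives. These included leaving out CLP replicate 1 or 3 or preGM replicate 1 or 2 (adjusted p from 0.125 to 0.147). In MkP against preMegE its log2 fold change of -1.29 ± 0.42 did not pass (adjusted p = 0.0643).

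**Figure D4:**
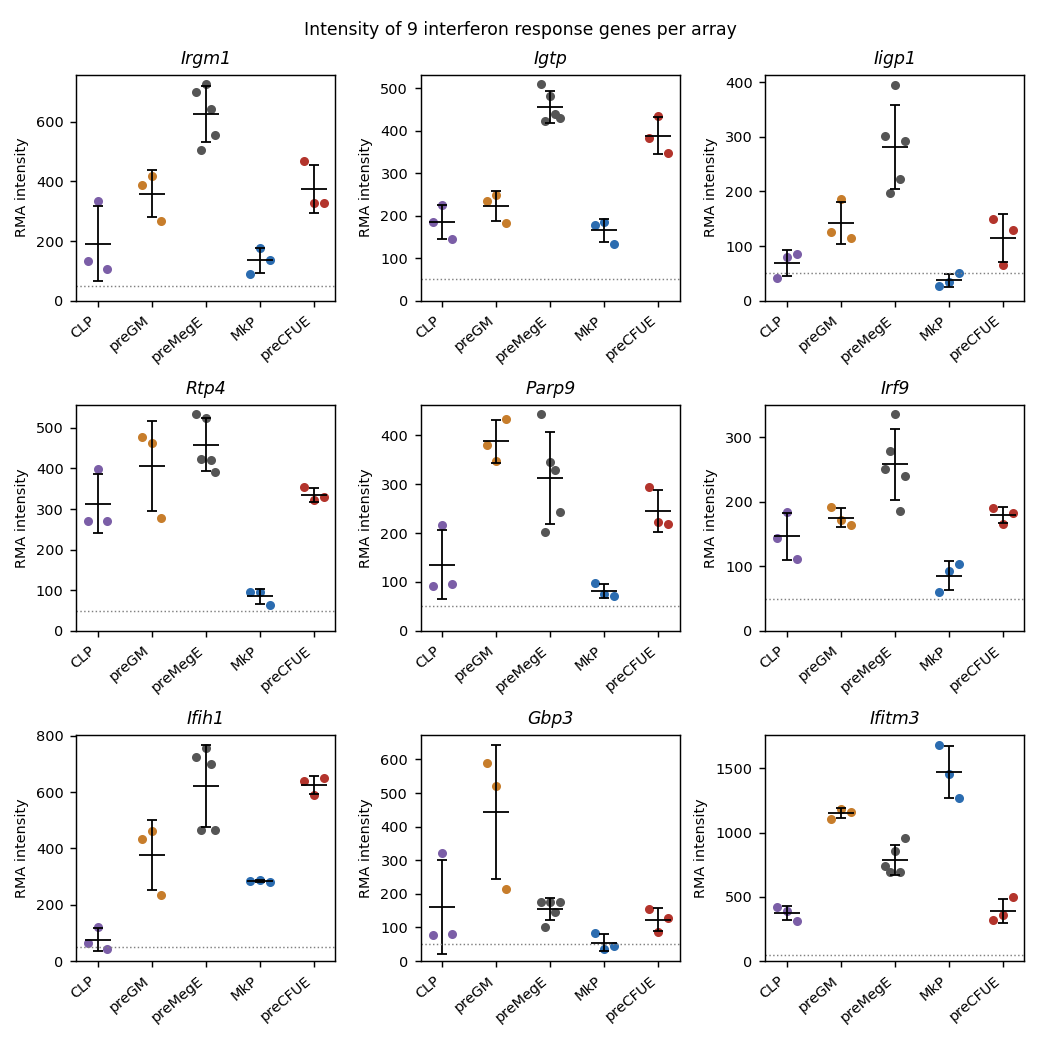
RMA intensity (linear axis, own scale per panel) of 9 members on each array, with 1 point per array and lines for mean ± SD in each fraction; the dotted line marks 50. The MkP points of Irgm1, Igtp, Iigp1, Rtp4, Parp9 and Irf9 lie below all preMegE points, whereas those of Ifitm3, from 1273 to 1679, lie above them.

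Among the RNA and DNA sensors and their regulators 4 of 5 passed the F test. Ifih1 (MDA5), the sensor of long double-stranded RNA, measured 724, 464, 757, 699 and 466.1 in preMegE and 640.3, 589 and 649.9 in preCFUE. It read 432, 463 and 235 in preGM, 285, 289.8 and 281 in MkP and 63.6, 121 and 43.8 in CLP. The CLP arrays were below every other array. Ifih1 was 4.36-fold lower (log2 fold change -2.12 ± 0.29, adjusted p = 0.000284) in CLP than in preGM, and 2.07-fold lower (log2 fold change -1.05 ± 0.26, adjusted p = 0.0189) in MkP than in preMegE. The first of these missed the threshold with only the arrays compared in the fit (adjusted p = 0.0574), and the second was lost without MkP replicate 1 (adjusted p = 0.0632) or MkP replicate 3 (adjusted p = 0.0698). In MkP against preCFUE Ifih1 was 2.13-fold lower (log2 fold change -1.09 ± 0.29, adjusted p = 0.0204), a call lost without MkP replicate 1 or 3 or preCFUE replicate 1 or 3 (adjusted p from 0.0561 to 0.0657). Among the members called, Ifih1 also had the largest difference between the mean of CLP and preGM and the mean of the other 3 fractions (log2 fold change -1.45 ± 0.18, adjusted p = 3.77e-05). Its preGM mean (377) nevertheless lay above its MkP mean (285.5).

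Ddx58 (RIG-I), the sensor of RNA with a 5-prime triphosphate, measured 274, 196, 329, 252 and 229 in preMegE. It read 127, 150.4 and 134 in MkP, 126, 156 and 159.9 in preCFUE, 222, 181 and 160.3 in preGM and 199.6, 179.5 and 152 in CLP. All MkP and preCFUE arrays lay below all preMegE arrays. The gene was 1.76-fold lower (log2 fold change -0.81 ± 0.15, adjusted p = 0.00218) in MkP and 1.65-fold lower (log2 fold change -0.73 ± 0.15, adjusted p = 0.00534) in preCFUE than in preMegE. Dhx58 (LGP2), a regulator of both sensors, read 102, 87.2 and 99.5 in preGM and 31.5, 60.4 and 51.8 in CLP, and was 1.79-fold lower (log2 fold change -0.84 ± 0.21, adjusted p = 0.0146) in CLP. This call was lost without CLP replicate 1 (adjusted p = 0.0654) or preGM replicate 1 (adjusted p = 0.0576). Quantile normalisation (adjusted p = 0.091) and only the arrays compared in the fit (adjusted p = 0.0907) lost it as well. Its other arrays read 61.96, 38.1, 62.96, 73.5 and 61.99 in preMegE, 35.4, 55.3 and 44.3 in MkP and 82.8, 64.7 and 50.9 in preCFUE. Replicate 2 of preMegE was the low one in that fraction. Trim25, the ubiquitin ligase that activates RIG-I, measured 2465, 2397 and 2699 in preGM and 2290, 2536 and 2692 in CLP. It read 2462, 1523, 3340, 2079 and 1587 in preMegE, 1224, 1697 and 1007 in MkP and 1963, 2146 and 1613 in preCFUE. The mean of CLP and preGM exceeded the mean of the other fractions (log2 fold change 0.54 ± 0.16, adjusted p = 0.0259). This call was lost without CLP replicate 3, preGM replicate 3, MkP replicate 3 or preCFUE replicate 3 (adjusted p from 0.0503 to 0.0632). MkP against preMegE did not pass (log2 fold change -0.71 ± 0.22, adjusted p = 0.0589). Zbp1, a sensor of Z-form nucleic acid, did not pass the F test, with fraction means from 29.2 in preGM to 51.3 in preMegE.

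Of the signalling genes, Irf9, a DNA-binding subunit of the factor that binds the ISRE, measured 251, 279, 337, 186 and 239.8 in preMegE and 60.6, 93.1 and 103 in MkP. It read 191, 166 and 182 in preCFUE, 192, 172 and 164 in preGM and 144, 184 and 111 in CLP. Every MkP array lay below every array of the other fractions. Irf9 was 2.71-fold lower (log2 fold change -1.44 ± 0.18, adjusted p = 0.000113) in MkP than in preMegE and 1.96-fold lower (log2 fold change -0.97 ± 0.20, adjusted p = 0.00479) than in preCFUE. Irf7, the factor that amplifies interferon alpha transcription, was near the threshold of 50, at 60.9, 51.98, 66.97, 62.6 and 62.5 in preMegE and 30.8, 38.2 and 29.1 in MkP. Its preCFUE arrays read 76.1, 60.8 and 66.5, its CLP arrays 46.6, 55.5 and 59.3 and its preGM arrays 47.0, 55.2 and 24.2, where replicate 3 was below every MkP array. Irf7 was 1.58-fold lower (log2 fold change -0.66 ± 0.15, adjusted p = 0.00992) in MkP than in preMegE, a call lost without MkP replicate 3 (adjusted p = 0.0552), and 1.72-fold lower (log2 fold change -0.78 ± 0.17, adjusted p = 0.00494) than in preCFUE. Stat2 stayed dim, with fraction means from 28.3 to 36.1, and did not pass the F test (adjusted p = 0.47). Usp18, the protease that removes Isg15 and restrains the type I receptor, ran from 47.4 in CLP to 84.8 in preMegE and did not pass either (adjusted p = 0.207). Its preGM arrays read 98.9, 108 and 30.9, so replicate 3 was low for Usp18 as well.

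Ifit proteins bind viral RNA that lacks a normal cap. Ifit1 measured 72.4, 63.7, 84.4, 80.4 and 50.3 in preMegE and 11.7, 14.0 and 10.5 in MkP. It read 45.6, 35.02 and 35.3 in preCFUE, 43.8, 65.8 and 23.2 in preGM and 22.6, 16.2 and 10.3 in CLP. The lowest preMegE array exceeded every array of the other fractions except preGM replicate 2. Ifit1 was 3.04-fold lower (log2 fold change -1.61 ± 0.20, adjusted p = 9.85e-05) in MkP than in preMegE, 1.94-fold lower (log2 fold change -0.96 ± 0.22, adjusted p = 0.00968) in MkP than in preCFUE and 1.8-fold lower (log2 fold change -0.85 ± 0.22, adjusted p = 0.0208) in CLP than in preGM. The last was lost without CLP replicate 3 or preGM replicate 1 or 2 (adjusted p from 0.071 to 0.0941) and with only the arrays compared in the fit (adjusted p = 0.181). Ifit2, a neighbour in the same gene cluster, passed the F test (adjusted p = 0.0325) but no comparison of fractions, and MkP was not low: its values were 184, 190.3 and 102 in MkP and 212, 111, 217, 150.4 and 127 in preMegE. The remaining Ifit2 arrays read 137, 156 and 113 in preGM, 103, 79.2 and 87.02 in preCFUE and 23.3, 75.2 and 99.1 in CLP. Ifit3, next to Ifit2, was dim, with fraction means from 21.1 to 27.6.

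Oligoadenylate synthetases make the messenger that activates RNase L, and 3 of 5 passed the F test, with 0 called in MkP against preMegE by limma (1, lower, at an unadjusted p under 0.05) and 4 of 5 below 0. Oas1a measured 457, 402 and 249 in preGM and 132, 204 and 139 in CLP, and was 2.18-fold lower (log2 fold change -1.12 ± 0.21, adjusted p = 0.00357) in CLP, a call lost with only the arrays compared in the fit (adjusted p = 0.0996). Its other values were 246, 195, 269.6, 236 and 275 in preMegE, 181, 256 and 169 in MkP and 257, 229 and 269 in preCFUE, ranges that overlap. Oasl1, which represses Irf7 translation, was highest in preCFUE at 112, 97.6 and 135. It read 62.2, 47.02, 73.2, 49.9 and 51.4 in preMegE, 42.1, 44.6 and 38.3 in MkP, 72.5, 72.05 and 68.6 in preGM and 65.5, 49.6 and 39.7 in CLP. Every preCFUE array lay above every array of the other fractions. Oasl1 was 1.8-fold higher (log2 fold change 0.85 ± 0.13, adjusted p = 0.000817) in preCFUE than in preMegE and 2.26-fold lower (log2 fold change -1.18 ± 0.15, adjusted p = 8.1e-05) in MkP than in preCFUE. Oasl2, the adjacent gene, was instead highest in preGM at 122, 132 and 222. Its arrays read 77.4, 48.9, 89.98, 53.6 and 60.6 in preMegE, 46.2, 65.1 and 36.1 in MkP, 59.0, 53.5 and 40.6 in preCFUE and 32.1, 26.2 and 47.5 in CLP. The preGM arrays lay above all others, and Oasl2 was 2.1-fold lower (log2 fold change -1.07 ± 0.22, adjusted p = 0.00442) in preMegE and 3.35-fold lower (log2 fold change -1.75 ± 0.24, adjusted p = 0.000304) in CLP than in preGM. Oas2, with fraction means from 63.2 to 81.6, and Oas3, from 18.8 to 24.8, did not pass the F test.

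Ifitm3, a membrane protein that blocks fusion of virus with endosomes, ran opposite to the other called members in MkP. It measured 1679, 1460 and 1273 in MkP and 736, 696, 854, 693 and 959.7 in preMegE. The preGM arrays read 1107, 1184 and 1161, the preCFUE arrays 318, 357 and 498 and the CLP arrays 423, 387 and 311. The MkP arrays were above every other array, and CLP and preCFUE overlapped at the bottom. Ifitm3 was 1.85-fold higher (log2 fold change 0.89 ± 0.15, adjusted p = 0.00134) in MkP than in preMegE and 3.69-fold higher (log2 fold change 1.88 ± 0.17, adjusted p = 2.53e-06) than in preCFUE. It was 1.99-fold lower (log2 fold change -1.0 ± 0.15, adjusted p = 0.000609) in preCFUE than in preMegE and 3.02-fold lower (log2 fold change -1.59 ± 0.17, adjusted p = 2.4e-05) in CLP than in preGM. In preMegE it was 1.46-fold lower (log2 fold change -0.55 ± 0.15, adjusted p = 0.033) than in preGM, a call lost without any 1 of preGM replicates 1, 2 and 3 and preMegE replicates 1, 2 and 4 (adjusted p from 0.0723 to 0.121). Quantile normalisation (adjusted p = 0.116) and replicate number as a block (adjusted p = 0.103) lost it as well.

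Rtp4, a chaperone that also acts as an antiviral protein, measured 96.3, 96.3 and 64.2 in MkP and 534, 423, 525, 422 and 390.1 in preMegE. It read 354, 321 and 330.5 in preCFUE, 476, 462 and 279 in preGM and 271, 398 and 272 in CLP. No array of another fraction fell to the highest MkP array. Rtp4 was 4.7-fold lower (log2 fold change -2.23 ± 0.18, adjusted p = 1.82e-06) in MkP than in preMegE and 3.5-fold lower (log2 fold change -1.81 ± 0.21, adjusted p = 2.86e-05) than in preCFUE. The mean of CLP and preGM exceeded the mean of the other fractions, MkP included (log2 fold change 0.52 ± 0.13, adjusted p = 0.0103). Taken singly, CLP (313) and preGM (406) both averaged below preMegE (459), and CLP below preCFUE (335). Parp9, which pairs with the ubiquitin ligase Dtx3l in interferon responses, measured 98.4, 76.2 and 72.01 in MkP and 444, 202, 345, 329 and 243 in preMegE. Its preGM values were 380.4, 348 and 434, its preCFUE values 295, 222 and 219.6 and its CLP values 92.8, 216 and 96.1. Except for CLP replicates 1 and 3, all arrays of the other fractions lay well above MkP. Parp9 was 3.26-fold lower (log2 fold change -1.70 ± 0.26, adjusted p = 0.00057) in MkP than in preMegE, 2.66-fold lower (log2 fold change -1.41 ± 0.29, adjusted p = 0.00415) in MkP than in preCFUE and 2.84-fold lower (log2 fold change -1.51 ± 0.29, adjusted p = 0.00381) in CLP than in preGM, the last lost with only the arrays compared in the fit (adjusted p = 0.0769). Parp14, which lies 1 protein-coding gene away, read 134, 155 and 187 in MkP, 376, 215, 498, 294 and 219.7 in preMegE and 229.6, 282 and 258 in preCFUE. Its preGM arrays read 443, 396 and 469 and its CLP arrays 289, 305 and 316. Parp14 was 1.85-fold lower (log2 fold change -0.89 ± 0.21, adjusted p = 0.0147) in MkP than in preMegE. This call was lost with quantile normalisation (adjusted p = 0.0712), with only the arrays compared in the fit (adjusted p = 0.0627) and without MkP replicate 1 (adjusted p = 0.0783). The mean of CLP and preGM exceeded the mean of the other fractions (log2 fold change 0.62 ± 0.15, adjusted p = 0.00804), although CLP alone (303.5) averaged below preMegE (320.4).

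Ifi35, a partner of Nmi, measured 731, 627 and 774 in MkP, 1265, 1148, 1324, 1414 and 1368 in preMegE and 1523, 1284 and 1699 in preCFUE. Its preGM arrays read 1239, 1246 and 1070 and its CLP arrays 492, 872 and 946. Ifi35 was 1.82-fold lower (log2 fold change -0.86 ± 0.17, adjusted p = 0.00437) in MkP than in preMegE and 2.08-fold lower (log2 fold change -1.06 ± 0.19, adjusted p = 0.00158) than in preCFUE, and its other probe sets gave log2 fold changes of -0.87 and -1.25 in the first comparison. It was 1.58-fold lower (log2 fold change -0.66 ± 0.19, adjusted p = 0.0295) in CLP than in preGM, a call lost in 7 alternatives. They included quantile normalisation (log2 fold change -0.29, adjusted p = 0.356) and only the arrays compared in the fit (adjusted p = 0.209). The Gapdh ratio as covariate (adjusted p = 0.0979) and leaving out CLP replicate 1 or preGM replicate 1 or 2 (adjusted p from 0.0831 to 0.0974) also lost it. Rsad2 (viperin), an enzyme that makes a chain-terminating nucleotide, read 311, 308 and 239 in preGM, 308, 245, 235, 292 and 288 in preMegE and 201, 172 and 156 in MkP. The preCFUE arrays read 162, 128 and 151 and the CLP arrays 146, 86.5 and 68.9. Rsad2 was 2.67-fold lower (log2 fold change -1.42 ± 0.19, adjusted p = 0.000274) in CLP than in preGM, a call lost with only the arrays compared in the fit (adjusted p = 0.0573), and 1.77-fold lower (log2 fold change -0.83 ± 0.17, adjusted p = 0.00697) in preCFUE than in preMegE. It was 1.51-fold lower (log2 fold change -0.59 ± 0.17, adjusted p = 0.044) in MkP than in preMegE, but 15 alternatives lost this call. They included quantile normalisation (adjusted p = 0.467) and leaving out preGM replicate 1 or 2, preMegE replicate 1, 4 or 5, or any MkP or preCFUE array (adjusted p from 0.051 to 0.179). Bst2 (tetherin), which holds budding virus at the cell surface, read 88.5, 54.1 and 84.6 in preCFUE and 26.3, 30.5 and 32.98 in MkP, and was 1.97-fold lower (log2 fold change -0.98 ± 0.20, adjusted p = 0.00432) in MkP. Its other arrays read 46.5, 42.8, 63.4, 54.98 and 44.97 in preMegE, 79.02, 80.4 and 51.1 in preGM and 26.4, 54.4 and 45.8 in CLP.

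Mx1, a GTPase that traps viral nucleoproteins and is defective in many laboratory strains, was dim throughout but passed the F test. It measured 19.8, 19.9 and 25.3 in preGM and 13.7, 17.5 and 21.4 in CLP. The preMegE arrays read 11.7, 12.2, 12.1, 13.4 and 11.97, the MkP arrays 9.59, 8.59 and 9.85 and the preCFUE arrays 10.7, 12.1 and 12.1. The values in preMegE, MkP and preCFUE lay below the median intensity of their arrays. Mx1 was 1.33-fold lower (log2 fold change -0.41 ± 0.071, adjusted p = 0.00128) in preMegE than in preGM. Members above 50 that did not pass the F test were, besides Zbp1, Usp18 and Oas2, the kinase Eif2ak2 (PKR) with fraction means from 45.8 in MkP to 78.3 in preMegE, the apoptosis regulator Xaf1 from 119 in MkP to 202 in CLP, and the peptide transporter Tap1 from 421 in MkP to 571 in preGM. All 3 had their lowest mean in MkP, with adjusted p-values in MkP against preMegE of 0.148, 0.0509 and 0.239. Mx2, from 22.3 to 33.5, and the chemokine Cxcl10, from 14.4 to 20.7, were dim and did not pass.

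Calls in MkP were also set beside the promoter letters. Of the 12 members with an ISRE match, 5 were lower in MkP than in preMegE and 7 were not called. Of the 13 without a match, 5 were lower, 1 was higher and 7 were not called.

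Other genes of the pathway were read from 6 lists, of which 84 genes were measured. The shares to read their counts against are those given above: 34.9% of all genes and 60.6% of genes above 50 past the F test, and 6.37% and 12.5% lower in MkP than in preMegE. They belong to the adjusted tests, and no share of all genes was counted at an unadjusted p. Of the receptors and JAK-STAT genes (11 of 13 above 50) 8 of 13 passed the F test, a share near that of genes above 50, and in MkP against preMegE 5 were lower and 0 higher by limma (7 and 1 at an unadjusted p under 0.05), with a median log2 fold change of -0.40. Ifngr1, the ligand-binding chain of the interferon gamma receptor, measured 801, 699.7, 1116, 771 and 873 in preMegE, 500.4, 492 and 677 in preCFUE and 127, 120.4 and 85.8 in MkP. Its preGM arrays read 252, 234 and 186 and its CLP arrays 119, 159 and 107. All preMegE and preCFUE arrays lay above all others, and Ifngr1 was 6.83-fold lower (log2 fold change -2.77 ± 0.17, adjusted p = 1.28e-07) in MkP than in preMegE and 3.6-fold higher (log2 fold change 1.85 ± 0.17, adjusted p = 3.64e-06) in preMegE than in preGM. The type I receptor chain Ifnar2 was highest in CLP (299 ± 124), followed by preGM (247 ± 53.9), preMegE (154 ± 27.6) and preCFUE (109 ± 17.5), and lowest in MkP (68.7 ± 16.2), and was 2.01-fold lower (log2 fold change -1.0 ± 0.23, adjusted p = 0.0116) in MkP than in preMegE. Il10rb, a chain of the lambda interferon and IL-10 receptors, was 214 ± 37.95 in preMegE, 92.9 ± 18.1 in preCFUE and 62.96 ± 9.94 in MkP, and was 2.89-fold lower (log2 fold change -1.53 ± 0.24, adjusted p = 0.000718) in MkP. Socs3, a feedback inhibitor of cytokine signalling, was higher in CLP (96.3 ± 32.1) and preGM (79.7 ± 34.4) together than in the other fractions (log2 fold change 1.56 ± 0.15, adjusted p = 2.88e-06). Jak1 and Pias1 did not pass the F test.

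**Figure D5:**
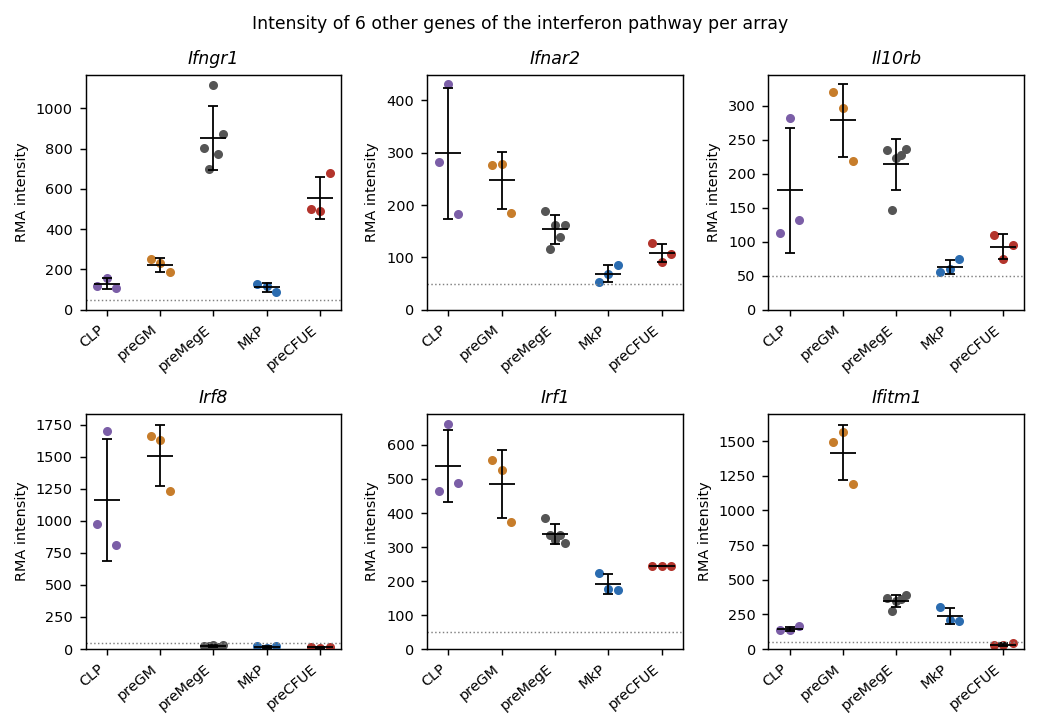
RMA intensity (linear axis, own scale per panel) of 6 other genes of the pathway on each array, with 1 point per array, lines for mean ± SD per fraction and a dotted line at 50. Ifngr1 is highest in preMegE and preCFUE on average, and Irf8 averages 1162 in CLP and 1509 in preGM against 14.4 to 25.6 in the other fractions.

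Interferon ligands were dim, with 1 of 10 (Ifnz) above 50 in a fraction, at 52.5 ± 7.21 in preMegE and 51.4 ± 9.06 in MkP, and 2 of 10 past the F test. The second, Ifna2, had fraction means from 10.7 to 17.8. Of the sensing adaptors and kinases (10 of 13 above 50) 6 of 13 passed, a share between those of all genes and of genes above 50, and in MkP against preMegE 2 were higher and 1 lower. Sting1, the adaptor of DNA sensing, averaged 293 ± 24.6 in CLP and 188 ± 15.8 in preGM. Its mean was 50.9 ± 12.6 for preMegE, 73.6 ± 15.1 for MkP and 48.8 ± 4.13 for preCFUE, and CLP and preGM together were higher (log2 fold change 1.79 ± 0.1, adjusted p = 5.46e-09). Myd88, the adaptor of most Toll-like receptors, was 276 ± 49.6 in MkP and 138 ± 28.9 in preMegE, and was 1.91-fold higher (log2 fold change 0.93 ± 0.23, adjusted p = 0.0197) in MkP, opposite to most members. Tlr7 and Ikbke also passed the F test, while Tbk1 and Irf3 did not. Irf3 was nevertheless the gene called lower in MkP than in preMegE (log2 fold change -0.64 ± 0.18, limma adjusted p = 0.0328).

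Among the other interferon regulatory factors 6 of 7 passed. Irf8, which directs monocyte and dendritic fates, was 1509 ± 238 in preGM and 1162 ± 472 in CLP, and between 14.4 and 25.6 in the other fractions. Irf1, an activator of interferon gamma targets, ran from CLP (538 ± 107) through preGM (485 ± 98.9), preMegE (338 ± 28.8) and preCFUE (244 ± 0.935) to MkP (191 ± 28.2), and was 1.71-fold lower (log2 fold change -0.78 ± 0.14, adjusted p = 0.00185) in MkP than in preMegE. The corepressor Irf2bp2 was 1.94-fold lower (log2 fold change -0.96 ± 0.17, adjusted p = 0.00167) in MkP than in preMegE. Irf4 passed the F test with a mean of 36.4 ± 12.4 in CLP, and Irf2bp1 did not pass.

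Of 31 further interferon-stimulated genes (24 above 50) 21 passed the F test, a share near the 60.6% of genes above 50, and in MkP against preMegE 11 were lower and 1 higher, against 12.5% lower among genes above 50, with a median log2 fold change of -0.53. Isg20, an exonuclease, was 433 ± 63.7 in preMegE, 425 ± 109 in preCFUE and 167 ± 26.8 in MkP (log2 fold change -1.30 ± 0.17, adjusted p = 0.00012 in MkP against preMegE). Cmpk2, a mitochondrial nucleotide kinase encoded beside Rsad2, was 399 ± 77.6 in preMegE, 367 ± 26.4 in preCFUE and 118 ± 28.6 in MkP (log2 fold change -1.64 ± 0.17, adjusted p = 1.44e-05). Slfn8 was 660.1 ± 55.6 in CLP, 291 ± 39.6 in preMegE and 163 ± 36.2 in MkP (log2 fold change -0.79 ± 0.13, adjusted p = 0.000917). Ifitm1, from the same gene cluster as Ifitm3, was 1418 ± 199.5 in preGM, 349 ± 42.7 in preMegE, 32.6 ± 9.23 in preCFUE and 239 ± 56.8 in MkP, and unlike Ifitm3 it was 1.44-fold lower (log2 fold change -0.53 ± 0.15, adjusted p = 0.0413) in MkP than in preMegE, with arrays that overlapped. The GTPase Ifi47 did not pass the F test, at 1748 ± 238 in MkP and 1544 ± 276 in preMegE, nor did the RNA editor Adar.

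MHC class I presentation genes passed the F test in 8 of 10 cases, and in MkP against preMegE 5 were lower and 0 higher by limma (7 and 0 at an unadjusted p under 0.05), with a median log2 fold change of -0.72 and all 10 below 0. The transporter subunit Tap2 was 146 ± 38.3 in preMegE and 77.7 ± 7.74 in MkP (log2 fold change -0.77 ± 0.22, adjusted p = 0.0437), and the class I transactivator Nlrc5 was 310.4 ± 85.03 and 134 ± 33.6 (log2 fold change -1.11 ± 0.32, adjusted p = 0.0372). The peptide-trimming protease Erap1 was 2.9-fold lower (log2 fold change -1.54 ± 0.39, adjusted p = 0.0175) in CLP than in preGM. The immunoproteasome subunit Psmb8 had its lowest mean in MkP (182 ± 41.7) and its highest in preGM (556 ± 190.4). H2-D1 and Psmb10 did not pass the F test. H2-D1 was nevertheless called lower in CLP than in preGM (log2 fold change -1.23 ± 0.39, limma adjusted p = 0.0448), with arrays that overlapped.

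Markers of other cells were summed per array to set beside these levels. In MkP and preMegE the monocyte list (8 genes measured) summed to 252 to 413 and 163 to 246, the plasmacytoid dendritic list (8 genes) to 687 to 741 and 562 to 706, and the T and NK list (10 genes) to 510 to 632 and 566 to 733. The B and plasma list (6 genes) summed to 808 to 1077 in MkP and 461 to 710 in preMegE. The neutrophil list (7 genes) varied widely within fractions, from 133 to 1441 in MkP, from 112 to 1572 in preMegE and from 232 to 1592 in preGM, and 0 of its genes passed the limma F test (0 also at an unadjusted p under 0.05). In MkP against preMegE all 8 monocyte genes lay above 0 and 2 were called higher by limma (4 higher and 0 lower at an unadjusted p under 0.05). Of the 10 T and NK genes 8 lay above 0 and 0 were called by limma (1 higher and 1 lower at an unadjusted p under 0.05). No share of all genes was counted at the unadjusted limit. In MkP 2 of 8 monocyte genes and 2 of 10 T and NK genes had means above 50. In at least 1 fraction, 4 of the 8 monocyte genes and 3 of the 10 T and NK genes had means above 50. Those under 50 in every fraction included the macrophage genes C1qa, C1qb and Adgre1 and the T cell genes Cd3d and Cd3g. The monocyte list was highest in preGM (3442 to 3714, led by Csf1r and F13a1) and the plasmacytoid dendritic list in CLP (1731 to 2009). The part of these cells in the members' differences was not tested.

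Some single arrays stood high or low across many members. In preMegE replicate 2, 5 of 35 members lay above their preMegE mean, as did 15% of genes above 50, and in replicate 3, 28 members and 74% did. In preGM replicate 3, 9 members lay above the preGM mean, against 25 and 22 in replicates 1 and 2, as did 38.1% of genes above 50 against 61.8% and 60.9%. In CLP replicate 2, 27 members lay above the CLP mean, as did 72.3% of genes above 50. With the Gapdh 3-prime to 5-prime ratio as a covariate, 16 members were lower and 1 higher in MkP than in preMegE. The share of all genes called in that fit was not set beside this count.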

How the data were processed

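RNA of 17 sorted samples was hybridised to Affymetrix mouse arrays after small-sample amplification, per the series' design text. Deposited intensity values came from RMA, per the submitters' processing notes, and were not log-transformed. Its version is not given in the sources used here. Arrays were assigned by the gate and replicate number in their titles. The free-text description names another gate for all 17 and was not used. The short fraction names follow general knowledge of the study, and preMegE stands in the design text.

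Of 45101 probe sets, 34945 carried 1 gene symbol in the platform annotation, 932 several and 64 were controls. Another 9160 were not listed there and are unnamed here. The probe set with the highest mean log2 value was kept for each of 18193 genes. Values were analysed as log2(intensity + 16) in 1 linear model over all arrays with limma 3.58.1 (R 4.3.3), with 12 residual degrees of freedom. P-values were adjusted by Benjamini-Hochberg over all genes and called below 0.05. The script was tested on simulated data. Plots were drawn with matplotlib 3.10.9.

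Members above 50 that passed the F test are given array by array. From each pathway list, up to 4 genes with the widest range and up to 2 abundant genes that did not pass are named. The members and lists were chosen with earlier results of these data known. Alternatives covered the pseudocount, filters, normalisation, probe sets, array weights, a replicate block, the Gapdh ratio and each array left out. Second-round amplification favours 3-prime ends, and precision is limited by how few arrays each fraction had.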

Additional observations from a re-analysis of the deposited data

Results flagged for a closer look

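In groups of 4 to 10 arrays a value that stands far from the rest can be picked out, which here applied to the 5 preMegE arrays only. The gap was taken on log2(intensity + 16), where the critical value is 0.71 of the whole range. Of 35 members tested in this way, 2 had such a value, and chance alone picks about 1 in 20. Both lay on preMegE replicate 2. Dhx58 measured 38.12 there, below the 61.96 to 73.54 of the other preMegE arrays, with a gap of 0.725 on that scale and 0.673, under the critical value, on linear intensities. Ifit3, a dim member, measured 33.86 there, above the 17.02 to 20.33 of the others, with a gap of 0.768 on that scale and 0.804 on linear intensities.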

How the results depend on the processing

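Of the 56 changes of members called in the 6 comparisons, 36 were called in every one of the 28 alternatives that could be fitted for them, 20 were lost in at least 1, and 0 changed direction. With genes filtered on an SD over mean above 0.5, which drops members from the test, 9 members passed the F test, and 7 (preMegE against preGM), 8 (MkP against preMegE), 6 (MkP against preCFUE) and 3 (CLP and preGM against the rest) were called. Array weights gave 20 calls in preMegE against preGM, 11 in preCFUE against preMegE and 17 in CLP against preGM. In preMegE against preGM quantile normalisation gave 12, the Gapdh ratio as covariate 11 (5 higher, 6 lower) and the replicate block 2. Fitting only the arrays compared left 3 calls in CLP against preGM. Shares of all genes called under these alternatives were not set beside the counts. The counts thus show how the calls move, not how members differ from other genes. The cause of these shifts was not tested. Leaving out each array in turn gave 22 to 25 members past the F test and 3 to 6 (preMegE against preGM), 12 to 17 (MkP against preMegE), 5 to 7 (preCFUE against preMegE), 10 to 14 (MkP against preCFUE), 7 to 15 (CLP against preGM) and 6 to 10 (CLP and preGM against the rest) calls. Deviations from the fraction means had a median r of -0.046 over 30 pairs of same-numbered arrays and 0.030 over 84 pairs of differently numbered arrays. Of these pairs 11 and 32 exceeded 0.1. The likeness of both sets cannot show whether same-numbered arrays shared animals or a sort, which the labels do not state. The replicate block lost 10 of the 56 changes, and its count in MkP against preMegE was 11. The number of members above the brightness mark was 31 at an intensity of 32 and 21 at 100.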
